A study of Mus musculus with 8 samples.

Results

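Mouse embryos carrying a transcription stop on the paternal copy of Gtl2 were set against wild-type embryos. The stop is a run of 3 polyadenylation cassettes, which terminate transcription, placed by genome editing in the promoter of Gtl2 (also named Meg3). Embryos with the insertion on the paternal chromosome alone are called PKI and those with none WT. The labels describe 2 PKI and 2 WT samples of the 8 in the series, and each of the 3 deposited tables (mRNA, long non-coding RNA and microRNA) holds 1 column per genotype. All differences below are therefore between single columns, PKI minus WT, with no measure of the spread between embryos and no p-value. The other 2 columns, the maternal insertion (MKI) and both (HOMO), serve only in a filter on low values and as a frame of reference. The design text gives embryonic day 12.5 for every genotype, while the sample titles name a slightly later day for each of PKI, MKI and HOMO than for WT. The material was the whole embryo, so the amount of a transcript reflects both how many cells of a type were present and how much each cell made. Strain and sex, the number of embryos per sample and the number of founder lines are not stated in the labels.

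On chromosome 12 lies the imprinted Dlk1-Dio3 domain, where Gtl2 and the non-coding RNAs downstream of it are transcribed from the maternal chromosome. These RNAs carry many microRNAs and small nucleolar RNAs, whereas the paternal copy, methylated at its control region, expresses Dlk1, Rtl1 and Dio3 instead. A paternally inherited insertion thus sits on the copy that normally keeps Gtl2 silent. At this stage of gestation the liver is the site where red cells and platelets of the definitive lineage are made, cartilage prefigures the skeleton, the first neurons have differentiated and the surface ectoderm is becoming a stratified epidermis. Genes of these tissues are therefore among those that whole-embryo RNA can show.

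Of 13279 mRNA genes at 1 FPKM (fragments per kilobase, scaled to depth) or more in at least 2 columns, 193 were at least 2-fold lower in PKI than in WT, which is 1.45% of those tested, and 93 were at least 2-fold higher, or 0.7%. Differences are on the scale of log2(FPKM + 0.5) throughout. Higher genes made up 32.5% of those past 2-fold, and 49.6% under quantile normalization, which gives all columns the same distribution. The median gene differed by -0.07 and the middle 50% lay between -0.26 and 0.13. PKI was below WT in 59.5% of genes and above it in 40.5%. List counts below are to be read beside these shares and those past 2-fold. It held the lowest of the 4 values in 21.4% of genes and the highest in 19.2%. The MKI column stood apart, with the lowest value in 44.2% and the highest in 38.3%, so places among the 4 columns are given below as description.

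Sex was one visible difference between the columns. In PKI the Y-linked genes Kdm5d, Ddx3y, Uty and Eif2s3y stood at 7.18, 10.98, 15.3 and 14.4 FPKM, and WT had 0 for each. In the same order they stood at 10.4, 14.3, 18.8 and 29.7 FPKM in MKI and 7.12, 8.06, 12.3 and 14.9 in HOMO. WT was thus the only column without them. Of 6 X-linked genes with a Y partner 5 were below WT and 1 above, none past 2-fold (median -0.51). Kdm6a, Eif2s3x and Kdm5c stood at 10.4, 58.3 and 23.0 FPKM in PKI against 18.1, 101 and 39.5 in WT, Ddx3x was near level at 92.9 against 95.7, and Zfx was at 21.1 against 17.6. Genotype and the sex of the embryos cannot be told apart in this pair of columns. The same holds below wherever WT stood apart from all the other columns. Medians per autosome lay between -0.09 and -0.01.

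Gene length was another. Across 12539 genes with a RefSeq position, which are not independent replicates, the difference was lower the longer the genomic span of the gene (Spearman's rho -0.286). The tenth of genes with the shortest spans, up to 4.45 kb, had a median of 0.11, and the tenth with the longest, above 136 kb, a median of -0.22. For the lists with the larger differences the median is therefore also given after subtracting the median of genes with a like span, called the span-corrected median. The part of gene length in any list's difference was not tested beyond that correction.

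**Figure D1:**
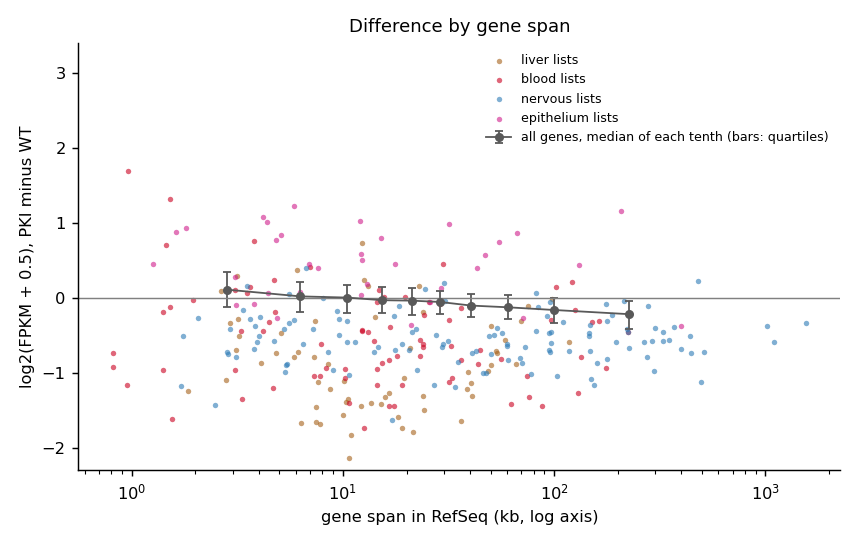
Difference between the PKI and WT columns, on the log2(FPKM + 0.5) scale, against the genomic span of each gene in kb on a log axis. Grey points with bars are medians and quartiles of 10 equal bins of all genes, running from 0.11 to -0.22, and coloured points are genes of the liver, blood, nervous system and epithelium lists; 1 gene, Serpina1b, lies below the axis.

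Liver genes were mostly lower in PKI. Of 64 measured genes on the 7 liver lists (102 listed), 57 were below WT in PKI and 30 were at least 2-fold lower, against 1.45% of all genes, with a median of -0.94 (span-corrected -0.90). PKI held the lowest of the 4 columns in 46 of the 64. Fewer cells of a type and less RNA per cell cannot be told apart in such whole-embryo values, here or below.

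The secreted products of hepatocytes carried the largest differences. All 10 measured serum carrier genes were below WT, 8 of them past 2-fold (median -1.27, span-corrected -1.25). Afp, the main carrier protein of fetal serum, stood at 292 FPKM in WT, against 96.2 in PKI, 457 in MKI and 365 in HOMO. Rbp4, which carries retinol, was at 40.0, 17.0, 41.8 and 48.0 FPKM in the same order, and Ttr, which carries thyroid hormone, at 29.6, 13.4, 24.6 and 33.4 FPKM. Trf, the iron carrier transferrin, was at 85.1, 24.1, 109 and 129 FPKM. In each of these the PKI column was the lowest. Vtn, a spreading factor of plasma and matrix, differed least of the list, at 13.5 and 9.35 FPKM in WT and PKI.

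Inhibitors of serine proteases followed, with 9 of 10 below WT and 8 past 2-fold (median -1.43). Serpinf2, the plasmin inhibitor, stood at 19.3 FPKM in WT and 5.69 in PKI (-1.68), Serpina6, the corticosteroid carrier of this family, at 42.5 and 16.3 FPKM (-1.36), and Serpind1, heparin cofactor, at 7.59 and 2.48 FPKM (-1.44). Itih2 and Itih3, heavy chains that bind hyaluronan, stood at 18.7 and 2.41 FPKM in WT against 5.60 and 0.594 in PKI. The Serpina1 genes are near-identical copies and their split is uncertain. Serpinf1, which mesenchyme also makes, was the exception at 18.5 and 21.8 FPKM.

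All 9 apolipoprotein genes were below WT, 4 past 2-fold (median -0.99, span-corrected -0.89). Apoa1, the main protein of high-density lipoprotein, stood at 17.3 FPKM in WT and 7.02 in PKI, and Apob, the scaffold of low-density particles, at 12.2 and 5.88. Apoc2, the activator of lipoprotein lipase, stood at 5.30 and 1.31 FPKM. Apoe, which many cell types make, was at 23.1 and 16.6 FPKM.

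All 8 coagulation genes were below WT and PKI held the lowest of the 4 columns in each, with 6 past 2-fold (median -1.20, span-corrected -1.18). The fibrinogen chains Fga, Fgb and Fgg stood at 7.19, 5.15 and 7.35 FPKM in WT and 2.29, 2.08 and 4.01 in PKI. F2, prothrombin, was at 3.55 and 1.13 FPKM, and Plg, plasminogen, at 4.297 and 1.44. Pros1, protein S, which endothelium also makes, was nearly level at 5.97 and 5.51 FPKM. Of 9 complement genes 7 were below WT, 2 of them past 2-fold, C3 (4.67 and 1.32 FPKM) and Cfi (2.66 and 0.862 FPKM). The macrophage subunits of the same list lay on both sides, C1qa at 3.57 FPKM in WT and 2.73 in PKI, C1qb at 4.95 and 6.52 and C1qc at 2.15 and 2.74.

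Regulators of the hepatocyte programme differed by less on the log2(FPKM + 0.5) scale. Of 9 measured transcription factor genes 8 were below WT and none passed 2-fold on that scale (median -0.60, span-corrected -0.45). The added 0.5 shrinks differences of genes at low levels such as these more than those of abundant genes, and its part in the contrast was not tested. Hnf4a, a nuclear receptor central to hepatocyte identity, stood at 2.53 FPKM in WT, against 1.14 in PKI, 2.07 in MKI and 2.44 in HOMO. Without the added 0.5 its level was 2.21-fold lower in PKI than in WT. Prox1, needed for hepatoblast migration, was at 6.05, 3.49, 8.31 and 5.79 FPKM. Tbx3 and Cebpa, at 8.67 and 1.95 FPKM in WT, stood at 7.15 and 2.10 in PKI. Among 9 genes of hepatocyte metabolism 6 were below WT and 2 past 2-fold, among them Pklr, the pyruvate kinase of liver and red cells (16.8 and 3.43 FPKM). The median of this list was -0.67, and -0.40 under quantile normalization. Arg1, the last enzyme of the urea cycle, was higher at 0.722 and 1.53 FPKM.

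Yolk sac endoderm makes many of the same secreted proteins. Of 12 yolk sac genes listed, 3 passed the filter, Rbp4, Ttr and the uptake receptor Lrp2 (2.39 FPKM in WT and 1.31 in PKI). Cubn, another uptake receptor of the list, lay below the filter at 0.284 FPKM in WT and 0.205 in PKI. Of 16 placenta genes 1 passed the filter, Prl3b1 at 0.829 and 1.11 FPKM, while Tpbpa stood at 0.152 and 0.182 FPKM. Rbp4 and Ttr are also on the serum carrier list, and with them the yolk sac list had a median of -1.11, 2 of 3 being past 2-fold lower.

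**Figure D2:**
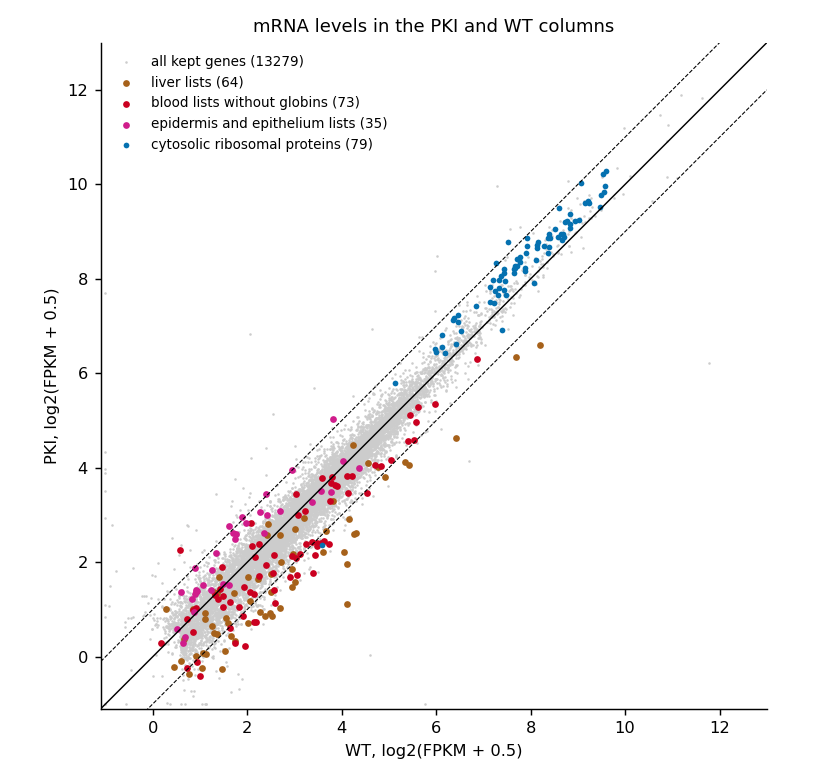
Levels of 13279 mRNA genes in the PKI column against the WT column, both as log2(FPKM + 0.5); the solid line marks equal levels and dashed lines 2-fold differences. The liver (64) and blood (73, without globins) lists lie mostly below the solid line, and the epidermis and epithelium lists (35) and cytosolic ribosomal protein genes (79) mostly above it.

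Promoters of the liver and blood lists were searched for motifs of their tissues. The lists were chosen by tissue function, so a high share in them does not bear on the difference between PKI and WT. The letters GTTAAT, a core of the site bound by the hepatocyte factor HNF1, were sought on both strands in RefSeq promoter windows (GRCm38.p6) from 250 bases before to 50 after each start. They occurred in 26.3% of 57 windows of the measured liver genes, in 4.34% of 12709 windows of all measured genes and in 7.10% of 32851 windows of any gene. AGATAA, a core letter string of GATA factors, occurred in 17.8% of 73 windows of the blood lists, 6.31% of all measured genes' windows and 11.2% of all windows. Among all measured genes at least 2-fold lower in PKI, liver and blood genes included, each of the strings occurred in 12.5% of 136 windows. A match is a letter string and not a bound site. The bases before the start of Alb and Afp, the most abundant genes of the liver lists in WT and neighbours on chromosome 5, are shown with the motif in capitals, at chr5:90460620-90460869 and chr5:90490464-90490713, plus strand.
Alb: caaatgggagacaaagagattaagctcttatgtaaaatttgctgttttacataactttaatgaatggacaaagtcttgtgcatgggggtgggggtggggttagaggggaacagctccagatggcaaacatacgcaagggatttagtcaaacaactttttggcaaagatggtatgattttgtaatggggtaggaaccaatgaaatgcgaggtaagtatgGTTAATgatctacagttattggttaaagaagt
Afp: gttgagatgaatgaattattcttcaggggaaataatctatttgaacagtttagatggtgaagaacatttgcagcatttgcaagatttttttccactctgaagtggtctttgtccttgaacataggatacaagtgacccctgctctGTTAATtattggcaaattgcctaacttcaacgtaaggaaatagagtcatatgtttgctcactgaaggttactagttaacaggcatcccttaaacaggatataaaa

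Most blood cell genes were lower as well, apart from macrophage, neutrophil and some globin genes. Of 80 measured genes on 7 blood lists, 65 were below WT and 20 at least 2-fold lower, against 59.5% and 1.45% of all genes. The median was -0.62 (span-corrected -0.58). All 14 transcription factor genes of blood were below WT, 5 past 2-fold (median -0.85, span-corrected -0.77), and PKI was the lowest of 4 columns in 11. Gata1, the master regulator of red cells and megakaryocytes, stood at 5.49 FPKM in WT, against 1.701 in PKI, 2.52 in MKI and 6.62 in HOMO. Klf1, the activator of adult-type beta globin, was at 12.798, 4.73, 4.97 and 9.73 FPKM, and Ikzf1, a lymphoid and erythroid factor, at 4.05, 1.17, 4.36 and 3.51. Gfi1b, a repressor needed in both lineages, was at 3.404, 0.674, 0.949 and 3.68 FPKM. In Gata1, Klf1 and Gfi1b the MKI column lay nearer to PKI than to WT, and in Ikzf1 nearer to WT. Among factors also made in stem cells or endothelium, Tal1 was at 9.05 and 4.73 FPKM, and smaller differences were seen in Lmo2 (17.0 and 10.6 FPKM in WT and PKI), Runx1 (4.75 and 3.33) and Gata2 (2.60 and 1.75).

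Genes of the red cell skeleton and surface showed the same order. Of 18 measured, 17 were below WT and 7 past 2-fold (median -0.94, span-corrected -0.85). Sptb, a spectrin gene of the membrane skeleton, stood at 10.3 FPKM in WT and 3.97 in PKI. Epor, the erythropoietin receptor, was at 6.96 and 2.74 FPKM, and the Rh blood group genes Rhd and Rhag at 10.6 and 10.6 in WT and 4.60 and 4.79 in PKI. Slc4a1, the anion exchanger band 3, was at 41.6 and 23.2 FPKM. Bpgm, which makes a regulator of oxygen affinity, differed little, at 13.1 FPKM in WT and 12.32 in PKI.

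Heme and iron genes were lower by smaller amounts. Of 15 measured, 13 were below WT and 1 past 2-fold (median -0.58, span-corrected -0.56). Alas2, the first enzyme of erythroid heme synthesis, stood at 27.9 FPKM in WT and 16.0 in PKI, and Cpox, the 1 past 2-fold, at 22.6 and 10.5. Tfrc, the transferrin receptor, was at 47.5 and 30.6 FPKM. Alas1, the form of other tissues, was level at 7.88 and 7.51 FPKM.

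The 7 globin genes lay on both sides, 2 above and 5 below WT. The adult-type genes Hbb-bs, Hba-a2 and Hba-a1 stood at 2201, 1528 and 1899 FPKM in WT and 1123, 806 and 1138 in PKI. The embryonic genes Hbb-y and Hbb-bh1, made in red cells of yolk sac origin, stood at 2334 and 220.2 FPKM in WT and 3798 and 548 in PKI. Adult-type Hbb-bt stood at 535 and 469.8 FPKM. Hba-x, the embryonic alpha-type gene, was near level at 400.0 and 368 FPKM. The ratio of Hbb-y to Hbb-bs was 1.06 in WT, against 3.38 in PKI, 3.01 in MKI and 2.85 in HOMO, so WT was the column that stood apart. The ratio of Hbb-bh1 to Hbb-bs was 0.10 in WT, against 0.488 in PKI, 0.123 in MKI and 0.189 in HOMO, and here PKI was the highest. Globin genes are close copies and the split of reads between them is uncertain.

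Platelet-lineage genes were below WT in 10 of 11 cases, 6 past 2-fold, against 1.45% of all genes (median -1.04, span-corrected -1.06). Itga2b and Itgb3, the subunits of the fibrinogen receptor, stood at 2.83 and 3.92 FPKM in WT, 0.726 and 1.16 in PKI, then 1.11 and 2.58 in MKI, with HOMO at 4.97 and 5.55. The platelet chemokine genes Ppbp and Pf4 stood at 10.1 and 11.4 FPKM in WT and 2.94 and 4.78 in PKI. Fli1, also an endothelial factor, was at 11.47 and 13.3 FPKM.

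Macrophage genes did not share this shift. Of 12 measured, 6 were above and 6 below WT (median -0.01, span-corrected 0.03), with the growth factor receptor Csf1r at 3.99 FPKM in WT and 3.81 in PKI and the mannose receptor Mrc1 at 4.23 and 4.72. Tyrobp, a signalling adaptor, was the highest of the list relative to WT, at 3.71 and 6.58 FPKM. Of 12 neutrophil genes 4 passed the filter, 3 above and 1 below WT (median 0.08). Of these Mpo, myeloperoxidase, was at 1.502 and 0.254 FPKM and S100a8 at 0.993 and 4.295, while Ngp, Camp and Elane, at 0.167, 0.154 and 0.0838 FPKM in WT, were listed at 0 in PKI.

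Vessel genes were moderately lower. Of 28 endothelial genes 25 were below WT and none passed 2-fold (median -0.43, span-corrected -0.39). Cdh5, the junctional cadherin of endothelium, stood at 12.03 FPKM in WT, against 6.39 in PKI, 9.12 in MKI and 13.6 in HOMO. Kdr, the main VEGF receptor, was at 11.7, 6.24, 13.2 and 12.28 FPKM, and Pecam1 at 10.4, 8.18, 15.1 and 14.3. Cldn5, Emcn and Icam2 were near level, at 7.48, 5.43 and 2.46 FPKM in WT and 7.00, 5.90 and 2.74 in PKI. Mural cell genes lay on both sides, with 8 of 13 below WT, near the 59.5% of all genes (median -0.19). Notch3 was at 26.5 and 16.9 FPKM in WT and PKI. The smooth muscle genes Tagln and Cnn1 were at 8.92 and 1.48 in WT and 15.0 and 2.83 in PKI.

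**Figure D3:**
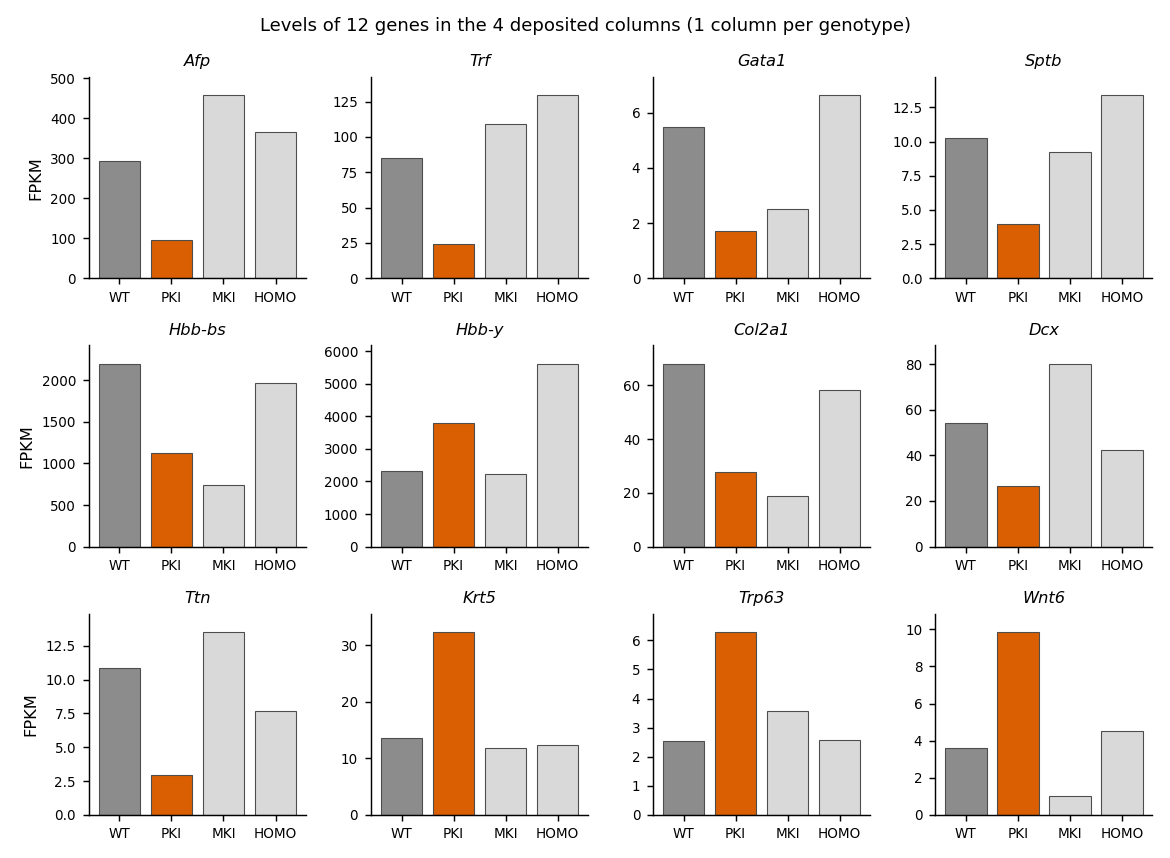
FPKM of 12 genes in the 4 deposited columns, 1 column per genotype, with WT in dark grey, PKI in orange and MKI and HOMO in light grey; each axis starts at 0. PKI is the lowest column for Afp, Trf, Gata1, Sptb, Dcx and Ttn and the highest for Krt5, Trp63 and Wnt6, whereas MKI is the lowest for Hbb-bs, Col2a1 and Hbb-y.

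Cartilage genes were lower throughout, whereas genes of the limb mesenchyme were not. All 14 cartilage genes were below WT, 4 past 2-fold, against 59.5% and 1.45% of all genes (median -0.82, span-corrected -0.66). Col2a1, the main collagen of cartilage, stood at 68.0 FPKM in WT, against 27.8 in PKI, 18.8 in MKI and 58.1 in HOMO. Acan, its main proteoglycan, was at 2.36 and 0.783 FPKM in WT and PKI, Matn4, a matrilin, at 9.198 and 4.07, and Col9a3 at 10.2 and 4.96. Among the factors that drive chondrocyte fate, Sox9 stood at 26.5 and 19.7 FPKM, Sox5 at 7.67 and 5.18 and Sox6 at 10.1 and 5.93. Hapln1, the link protein, was level at 4.90 and 4.73 FPKM.

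Of 8 bone genes 6 were below WT and none passed 2-fold (median -0.23), with the osteoblast factor Runx2 at 4.28 and 3.50 FPKM and alkaline phosphatase Alpl at 2.27 and 1.08. Tendon and joint genes had a median of 0.07, with the tendon factor Scx at 9.32 and 11.53 FPKM. Of 20 limb and axial patterning genes 14 were above WT (median 0.20, span-corrected 0.27), and PKI was the highest of 4 columns in 10. Prrx1, a marker of limb mesenchyme, stood at 38.5 FPKM in WT and 50.5 in PKI. Msx1 and Msx2, factors of limb and craniofacial mesenchyme, stood at 7.90 and 2.15 FPKM in WT, 13.4 and 4.11 in PKI and 12.5 and 2.28 in HOMO, and both were listed at 0 in MKI. Uncx, which patterns the vertebral precursors, was lowest of the list at 5.78 and 3.04 FPKM.

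Matrix genes outside cartilage were mostly lower by less than 2-fold. All 15 fibrillar and network collagen genes were below WT, 1 past 2-fold (median -0.35, span-corrected -0.26). Col1a1, Col1a2 and Col3a1, the most abundant, stood at 78.7, 123 and 168 FPKM in WT and 61.3, 99.9 and 138 in PKI. Col15a1, a basement membrane collagen of vessels and muscle, was at 5.74 and 2.28 FPKM. Of 22 matrix glycoprotein genes 21 were below WT and PKI was the lowest column in 14 (median -0.48, span-corrected -0.34). Fn1, fibronectin, was at 78.0, 40.9, 65.4 and 86.7 FPKM in the order WT, PKI, MKI, HOMO, and Eln, elastin, past 2-fold at 6.91, 2.85, 1.64 and 6.28. Small leucine-rich proteoglycans lay on both sides (5 of 8 above, median 0.10), with Dcn at 20.6 and 22.4 FPKM in WT and PKI and Lum, the highest, at 32.9 and 59.3.

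Genes of the nervous system were lower across functions. Of 123 measured genes on 8 lists, 116 were below WT and 13 past 2-fold, against 59.5% and 1.45% of all genes. The median was -0.58 (span-corrected -0.45), and PKI was the lowest of 4 columns in 77. These genes have long spans (median 46.0 kb), so span-corrected values are given as well.

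Of 18 neuronal cytoskeleton genes 17 were below WT, 3 past 2-fold (median -0.66, span-corrected -0.55). Dcx, which stabilises microtubules in migrating neurons, stood at 54.2 FPKM in WT, against 26.4 in PKI, 80.2 in MKI and 42.5 in HOMO. Mapt, encoding tau, was at 17.2, 8.09, 8.62 and 16.1 FPKM and Tubb3, neuronal tubulin, at 182.6, 121, 41.4 and 170.0. Stmn1, which dividing cells also make, was level at 182.2 FPKM in WT and 189 in PKI. Of 18 synaptic release genes 17 were below WT, 1 past 2-fold (median -0.67, span-corrected -0.53), among them Snap25 (6.98 and 3.80 FPKM) and Syt1 (5.95 and 3.39 FPKM), parts of the vesicle fusion machinery, and Unc13a (2.58 and 1.03 FPKM), which primes vesicles.

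All 9 transmitter genes were below WT with none past 2-fold (median -0.65, span-corrected -0.51). They included both inhibitory and excitatory kinds, with Gad1 at 4.59 FPKM in WT and 2.55 in PKI and the glutamate transporter Slc17a6 at 7.29 and 4.97. All 13 voltage-gated channel genes were below WT, 2 past 2-fold (median -0.51, span-corrected -0.32), Scn9a, the sodium channel of pain fibres (3.15 and 1.13 FPKM), and Cacna1e (2.91 and 1.06 FPKM).

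Of 21 adhesion and guidance genes 20 were below WT, 3 past 2-fold (median -0.51, span-corrected -0.31). Cntn2 and L1cam, adhesion molecules of growing axons, stood at 21.1 and 8.75 FPKM in WT and 8.97 and 3.62 in PKI, and the repellent Slit1 at 6.96 and 3.01. Robo1 and Robo2, receptors of such repellents, were nearer to WT, at 29.0 and 21.6 FPKM in WT and 22.2 and 17.0 in PKI. All 12 sensory and motor neuron genes were below WT, 2 past 2-fold (median -0.60, span-corrected -0.58). Ret, the receptor of GDNF-family factors, stood at 3.10, 1.29, 1.74 and 3.12 FPKM in the order WT, PKI, MKI, HOMO.

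Of 22 neural progenitor genes 20 were below WT, 2 past 2-fold (median -0.48, span-corrected -0.47). Sox2, the progenitor factor, stood at 9.51 FPKM in WT, against 3.21 in PKI, 11.1 in MKI and 0.734 in HOMO, so the 2 columns with a paternal insertion were the low ones. Neurog1, a sensory neuron determinant, was at 4.01, 1.5004, 1.48 and 3.24 FPKM. Nes and Fabp7, abundant in radial glia, were near level, at 41.7 and 111 FPKM in WT and 36.8 and 123 in PKI. Neural crest and Schwann genes had a median of -0.20 (span-corrected -0.19) with none past 2-fold.

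Of 7 lens crystallin genes 6 were below WT, 3 past 2-fold (median -0.86, span-corrected -0.84). Cryaa, the lens chaperone, stood at 9.50 FPKM in WT, against 4.50 in PKI, 3.69 in MKI and 10.95 in HOMO, and Cryga at 3.71, 1.01, 0.652 and 1.71, though gamma crystallins are close copies. Cryab, made in many tissues, was at 5.54 and 6.67 FPKM in WT and PKI.

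Skin genes went the other way. Of 13 basal epidermis genes 11 were above WT and 5 past 2-fold, against 0.7% of all genes, and PKI was the highest of 4 columns in 9 (median 0.87, span-corrected 0.70). The basal keratin genes Krt5, Krt14 and Krt15 stood at 13.6, 7.23 and 3.22 FPKM in WT and 32.4, 15.0 and 7.34 in PKI. Trp63, the regulator of stratified epithelium, was at 2.55 FPKM in WT, against 6.29 in PKI, 3.57 in MKI and 2.56 in HOMO. Perp, a desmosome protein, was at 4.81, 10.3, 4.82 and 5.18 FPKM. Dst and Itga6, which anchor the cells to the basement membrane and are also made in nerve, were below WT at 20.1 and 13.2 FPKM in WT and 15.4 and 10.8 in PKI. With a filter of 5 FPKM the median of the basal list was 0.57.

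Epithelial genes shared by many organs were higher by less. Of 16 measured, 12 were above WT, none past 2-fold (median 0.42, span-corrected 0.35), and PKI was the highest column in 11. Cdh1 and Epcam, adhesion molecules of epithelia, stood at 3.41 and 4.31 FPKM in WT and 6.63 and 7.82 in PKI, and Cldn4, a tight junction protein, at 2.74 and 5.67. Spint2, a protease inhibitor, was level at 11.3 and 10.9 FPKM. Of 18 suprabasal and periderm genes 6 passed the filter, 5 of them above WT (median 0.41), with Krt19 at 2.90 and 5.57 FPKM and Krt10 level at 2.33 and 2.41. Genes on no epidermis list but known from skin were also among those past 2-fold, chosen here after their values were seen: the gap junction genes Gjb2 (7.54 and 21.7 FPKM) and Gjb6 (1.56 and 4.15 FPKM) and the chemokine Cxcl14 (18.3 and 45.3 FPKM).

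**Figure D4:**
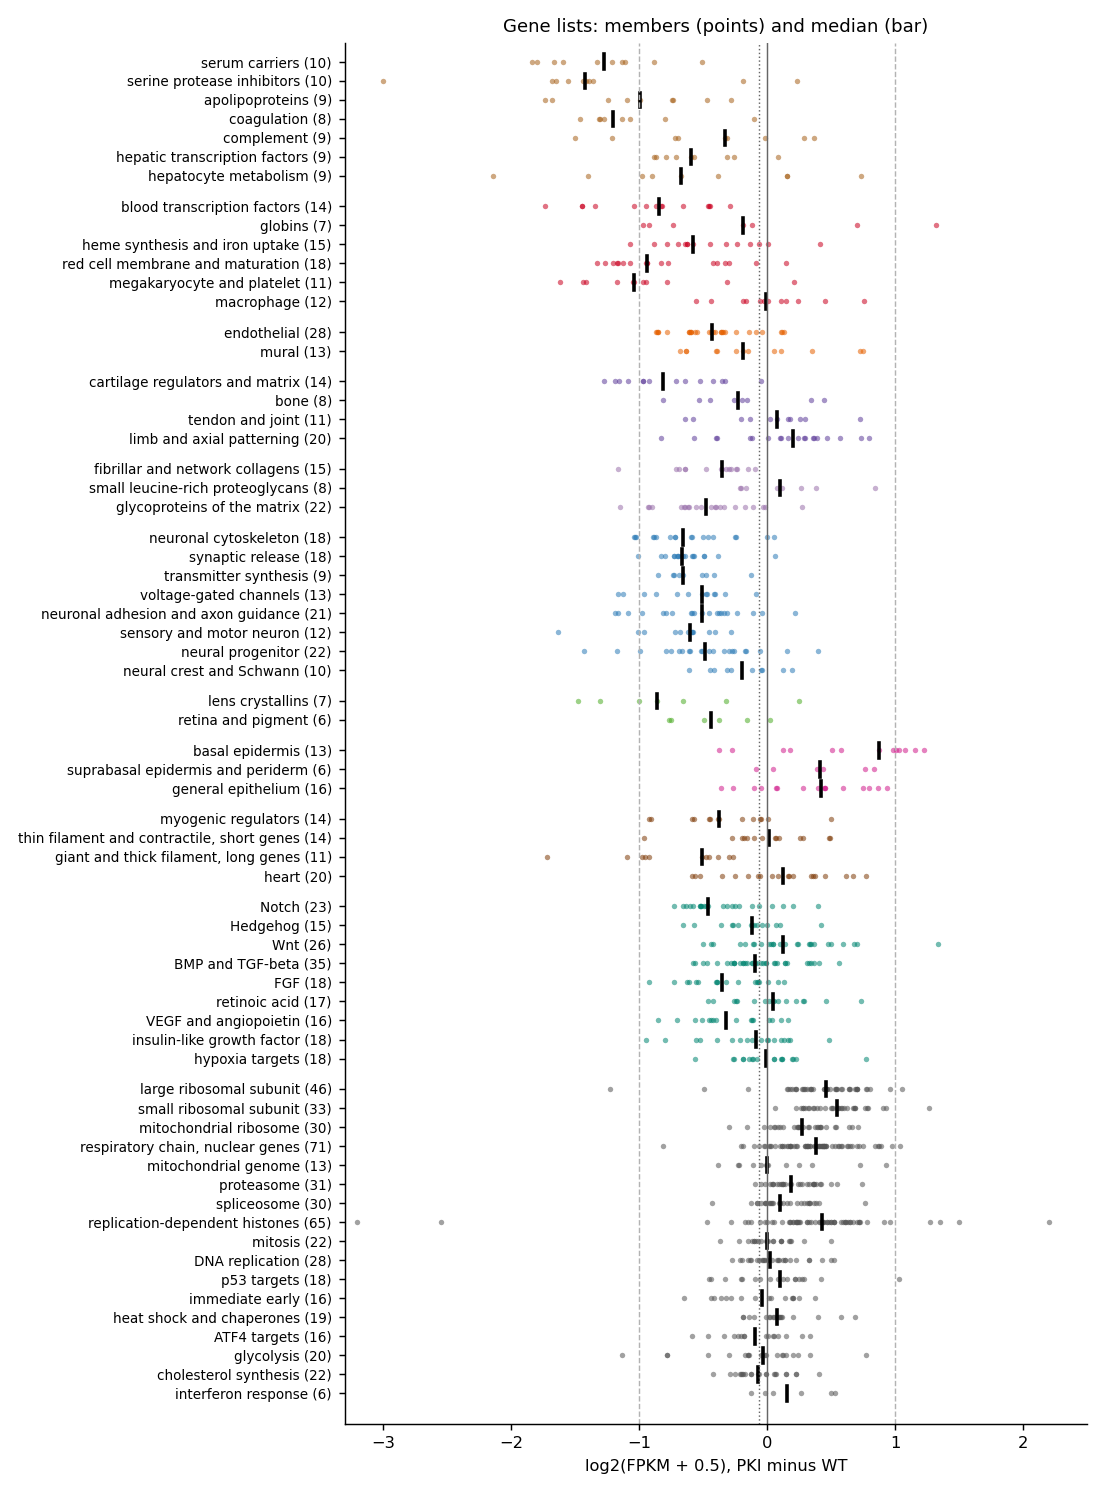
Differences between PKI and WT on the log2(FPKM + 0.5) scale for the measured members (points) of 65 gene lists with 6 or more measured members, given in brackets, and the list median (black bar); the dotted line is the median of all genes at -0.07 and dashed lines mark 2-fold. Serum carrier and coagulation lists have medians of -1.27 and -1.20 and basal epidermis one of 0.87; 1 histone gene below the axis is drawn at its edge.

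Muscle genes differed between a list of mostly long genes and a list of mostly short genes. The long list, giant and thick filament, had a median span of 87.0 kb, and the short list, thin filament and contractile, 14.4 kb. They do not separate thick from thin filaments, as the long list holds Neb, Ryr1 and Dmd and the short list Myl1, Myl4 and Mylpf. Of 11 genes on the giant and thick filament list, all were below WT, 2 past 2-fold (median -0.51, span-corrected -0.41), and PKI was the lowest column in 8. Ttn, encoding titin, stood at 10.8 FPKM in WT, against 2.95 in PKI, 13.5 in MKI and 7.70 in HOMO, and Neb, nebulin, at 4.05, 1.63, 7.13 and 2.96. The 14 genes of the thin filament and contractile list lay on both sides (7 above and 7 below, median 0.01, span-corrected 0.01), with Actc1 at 122.5 and 101 FPKM in WT and PKI, Tpm1 at 98.8 and 138 and Myl4 at 35.4 and 49.9. Of 14 myogenic regulators 12 were below WT, none past 2-fold (median -0.38, span-corrected -0.27), with the commitment factor Myod1 at 13.2 and 10.05 FPKM and Myog, which starts differentiation, level at 20.5 and 20.6.

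Heart genes had a median of 0.12 with 12 of 20 above WT and none past 2-fold. The chamber genes Myl2 and Myl7, myosin light chains, stood at 20.2 and 15.5 FPKM in WT and 31.2 and 24.9 in PKI, whereas the pacemaker channel Hcn4 and the factor Tbx20 were at 2.65 and 2.41 in WT and 1.60 and 1.47 in PKI. Kidney genes had a median of -0.33, with Lhx1 and Pax2, factors of the early duct, at 6.81 and 3.57 FPKM in WT and 3.55 and 1.96 in PKI, both also made in neural tissue.

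Signalling pathways differed less than tissues. Of 190 measured genes on the pathway lists 119 were below WT, near the 59.5% of all genes. Past 2-fold were 1 higher and 0 lower (median -0.12), against 0.7% and 1.45% of all genes. Within the Notch list 19 of 23 were below WT (median -0.46, span-corrected -0.38). The receptors Notch1, Notch2 and Notch3 stood at 24.5, 26.2 and 26.5 FPKM in WT and 14.6, 17.4 and 16.9 in PKI, and the ligands Dll1 and Dll3 at 12.4 and 6.07 in WT and 7.97 and 4.07 in PKI. Among the targets, Hes5, of neural progenitors, was at 21.9 and 15.2 FPKM, while Hes1 and Hey2 were at 13.2 and 3.72 in WT and 15.3 and 5.04 in PKI.

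The Wnt list contained the 1 pathway gene past 2-fold. Wnt6, a ligand of surface ectoderm, stood at 3.61 FPKM in WT, against 9.86 in PKI, 1.01 in MKI and 4.50 in HOMO. Of 26 measured Wnt genes 18 were above WT (median 0.12, and -0.02 with a filter of 5 FPKM), with the ligands Wnt3 and Wnt4 at 1.47 and 2.72 FPKM in WT and 2.65 and 4.74 in PKI. The feedback targets Axin2, Nkd1 and Lef1 stood at 12.2, 7.58 and 7.61 FPKM in WT and 18.7, 10.9 and 10.8 in PKI, and Axin2 was highest in PKI of the 4 columns. The coreceptors Lrp5 and Lrp6 were below WT, at 15.4 and 22.9 FPKM in WT and 10.7 and 19.8 in PKI.

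The FGF list was below WT in 15 of 18 genes (median -0.36, span-corrected -0.22). The receptors Fgfr1 and Fgfr3 were at 44.9 and 13.1 FPKM in WT and 35.9 and 8.82 in PKI, with Fgfr2, the epithelial receptor, level at 27.7 and 27.8. Hedgehog genes had a median of -0.12, with the ligand Shh at 2.53 and 1.54 FPKM and the targets Ptch1 and Gli1 at 24.1 and 5.42 in WT and 18.7 and 5.25 in PKI. VEGF and angiopoietin genes had a median of -0.32, the receptors Kdr, Tie1 and Tek being below WT and the ligand Vegfa near it at 10.3 and 9.52 FPKM. Retinoic acid genes had a median of 0.04, with Crabp1, an intracellular carrier, furthest above WT at 60.8 and 101 FPKM.

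Of 18 measured genes of the insulin-like growth factor axis 8 were above and 10 below WT (median -0.08, span-corrected 0.01). Igf2, the main fetal growth factor, stood at 379.7 FPKM in WT and 380.0 in PKI, and Grb10, which restrains its signalling, at 236 and 245. The receptor genes Igf2r, Insr and Igf1r were below WT, at 45.6, 12.66 and 25.2 FPKM in WT and 23.5, 8.44 and 17.4 in PKI. All 5 thyroid hormone pathway genes measured were below WT, none past 2-fold (median -0.38, span-corrected -0.22). Hypoxia targets had a median of -0.01 (span-corrected 0.02), with 9 above and 9 below. Among imprinted genes outside the domain, 5 of 21 paternally expressed ones were above WT (median -0.13) and 7 of 16 maternally expressed ones (median -0.09, span-corrected 0.07), and none passed 2-fold.

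In the Dlk1-Dio3 domain itself no mRNA gene passed 2-fold. Dlk1, a membrane protein related to Notch ligands and the main paternal product of the domain, stood at 80.5 FPKM in WT and 55.7 in PKI (-0.53). Rtl1, a retrotransposon-derived gene, was at 1.02 and 0.610 FPKM (-0.46), and Dio3, whose enzyme breaks down thyroid hormone, lay below the filter at 0.568 and 0.416. PKI was the lowest of the 4 columns in Dlk1 and Rtl1, and Dlk1 is made in fetal liver among other tissues. Of 19 measured genes flanking the domain 14 were below WT (median -0.14, span-corrected -0.06), from Dync1h1, a dynein motor gene, at 56.2 and 31.4 FPKM to Cinp at 9.71 and 12.97.

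Genes of the translation and respiration machinery were above WT. Of 33 small-subunit ribosomal protein genes all were above WT (median 0.55, span-corrected 0.39), as were 43 of 46 of the large subunit (median 0.46, span-corrected 0.39). Under quantile normalization these medians were 0.23 and 0.16. Rps14 and Rplp1, abundant examples, stood at 745 and 458 FPKM in WT, 1185 and 664 in PKI, then 75.5 and 81.5 in MKI, with HOMO at 591 and 419. Many ribosomal protein genes have processed copies, so single values are uncertain, as for Rpl21 (11.6 and 4.64 FPKM in WT and PKI) and Rps25 (183.4 and 442 FPKM), the members furthest from WT. Of 71 nuclear genes of the respiratory chain 64 were above WT, 1 past 2-fold (median 0.38, span-corrected 0.34), with Cox7c at 132 and 215 FPKM, Ndufb11 at 34.5 and 63.3 and Atp5g1, past 2-fold, at 25.6 and 53.1. The 13 genes of the mitochondrial genome did not share this, with 6 above and 7 below. Mitochondrial ribosome and proteasome genes were above WT in 27 of 30 and 28 of 31 cases (medians 0.27 and 0.18).

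Cell division genes were level. The 22 mitosis genes had 11 above and 11 below WT (median 0.00), with Top2a, the topoisomerase of dividing cells, at 108 FPKM in WT and 111 in PKI, and the 28 DNA replication genes had a median of 0.02. Of 65 replication-dependent histone genes, whose transcripts mostly lack a poly(A) tail, 55 were above WT (median 0.43, and 0.17 under quantile normalization), 4 past 2-fold higher and 2 past 2-fold lower. These genes are near-identical copies and their split is uncertain, as for Hist1h3d (23.8 and 0.520 FPKM in WT and PKI) and Hist2h2aa1 (62.2 and 288 FPKM). Targets of p53 and of the stress factor ATF4 had medians of 0.10 and -0.10.

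Of the 193 lower genes 115 were on no list, and of the 93 higher genes 74. Single genes far from WT, by the rule of the largest differences each way, included Duxbl1, a homeobox gene of a repeated family, at 2.99 FPKM in WT and 0.272 in PKI, and Gm49450, at 53.7 in WT and listed at 0 in PKI and MKI. On the higher side were Sumo2, a small protein modifier with many processed copies, at 3.68 and 113 FPKM, Capn11, a calpain protease, at 0.0807 and 3.00, and the zinc finger gene Zfp146 at 0.831 and 5.25. Among other lower genes, picked after their values were seen, were Reln, the guidance protein reelin (12.96 and 4.24 FPKM), Ache, acetylcholinesterase (4.67 and 1.32 FPKM), P2rx3, the ATP receptor of sensory fibres (4.19 and 1.64 FPKM), Kng1, kininogen (4.55 and 1.53 FPKM), and Fermt3, an integrin activator of blood cells (5.17 and 2.01 FPKM). As these 5 were picked from the lower genes, their known roles in nerve, liver or blood add no support to the lists above. How many of the 115 have such roles was not counted.

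HOMO and MKI differ, like PKI and WT, by a paternal insertion, and the pair shares no column with PKI and WT. The pairs are not alike in sex, as Y-linked genes were present in both HOMO and MKI but in PKI and not WT. In HOMO 484 genes (3.64%) were 2-fold lower and 2615 (19.7%) 2-fold higher than in MKI. Of the 193 genes lower in PKI than WT, 11 (5.70%) were also lower in HOMO than MKI, which is 2.27% of the 484, and 50 (25.9%) were higher there, 1.91% of the 2615. Of the 93 higher genes, 26 (28.0%) were higher in both pairs, 0.994% of the 2615, and 12 (12.9%) were lower in HOMO than MKI, 2.48% of the 484. The 11 lower in both pairs included Alb (204.7, 81.1, 542 and 259 FPKM in the order WT, PKI, MKI, HOMO), Sox2, Neb, the erythroid nuclear gene Hemgn (8.68, 2.93, 13.98 and 5.29 FPKM) and Tdg, a DNA repair glycosylase (24.98, 10.1, 29.7 and 9.94 FPKM). The 26 higher in both included Hbb-bh1, Krt14, Wnt6, Sumo2 and Zfp146. The liver lists had a median of 0.32 between HOMO and MKI, the blood lists 0.66 and the epithelium lists 0.55.

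The microRNA table held whole reads, 8405962 in WT and 10072670 in PKI, so the counting error of each value is known. Of 505 microRNAs at 10 RPM (reads scaled to the depth of the library) or more in at least 2 columns, 8 (1.58%) were 2-fold lower and 4 (0.792%) 2-fold higher in PKI, so that 33.3% of those past 2-fold were higher, or 43.5% under quantile normalization. At 1.5-fold they were 56 (11.1%) and 22 (4.36%). Ratios below carry exact conditional 95% intervals, which cover counting error only and not the spread between embryos. The interval lay wholly above 100% of WT for 180 microRNAs and wholly below for 185. It lay wholly past 2-fold for 2 higher and 2 lower ones.

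MicroRNAs of the Dlk1-Dio3 domain, made from the maternal transcripts downstream of Gtl2, were near WT. The 74 measured by their RefSeq position took 13.7% of reads in WT and 12.4% in PKI, with 34 above and 40 below WT (median -0.03, range -0.93 to 0.60). They lie in 3 groups along the domain, 19 between 22.7 and 54.4 kb from the Meg3 start (median -0.02), 4 between 70.6 and 77.3 kb (median -0.21) and 51 between 168 and 207 kb (median -0.02). The sequences shown are the 2 most abundant, miR-127-3p (chr12:109592888-109592909) and miR-541-5p (chr12:109742422-109742446), and both arms of the miR-434 hairpin (chr12:109594528-109594549 and chr12:109594565-109594586), which differed, all on the plus strand with the seed, bases 2 to 8, in capitals.
miR-127-3p: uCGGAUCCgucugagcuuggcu
miR-541-5p: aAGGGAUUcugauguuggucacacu
miR-434-5p: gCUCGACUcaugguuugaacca
miR-434-3p: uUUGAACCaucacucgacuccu

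miR-127-3p, antisense to Rtl1, stood at 26481 RPM in WT and 26139.5 in PKI, 98.7% of WT (98.2 to 99.3%). miR-541-5p was at 19152 and 23305 RPM, or 121.7% (120.9 to 122.5%). miR-434-5p was at 13281 and 7642 RPM, or 57.5% (57.0 to 58.1%), while miR-434-3p from the other arm of the same hairpin was at 2042 and 2224 RPM. The lowest of the domain relative to WT was miR-770-3p, the one nearest the Meg3 start, at 193.6 and 102 RPM, 52.5% (48.5 to 56.8%). The highest was miR-494-3p at 1376 and 2081 RPM, 151% (147.8 to 155%). In none of the 3 groups did the members share a direction, as 8 of 19, 1 of 4 and 25 of 51 were above WT.

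The family of miR-17, defined by the seed AAAGUGC, was above WT in all 6 members (median 0.59). These microRNAs come from 3 clusters on chromosomes 14, X and 5, are abundant in dividing embryonic cells and are known to act on cell cycle and TGF-beta genes. Their sequences are shown because they share the seed, in capitals, and differ elsewhere.
miR-17-5p: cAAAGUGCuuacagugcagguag
miR-20a-5p: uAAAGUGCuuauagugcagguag
miR-20b-5p: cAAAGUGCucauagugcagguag
miR-93-5p: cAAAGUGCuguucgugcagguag
miR-106a-5p: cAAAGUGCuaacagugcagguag
miR-106b-5p: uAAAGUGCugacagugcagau

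Summed over the family the level was 19529 RPM in WT, against 29574 in PKI, 36584 in MKI and 29165 in HOMO, so WT was the lowest column. miR-20a-5p, the most abundant, stood at 7780 RPM in WT and 12947 in PKI, 166% of WT (165 to 168%), and miR-106b-5p, the nearest to WT, at 583 and 679 RPM, 116% (112 to 121%). Of 13 seed families with 3 or more measured members, 2 had every member above WT, this one and the AAUACUG family of miR-200b, miR-200c and miR-429 (median 0.14), and 1 had every member below, the AGUGCAA family of miR-130 and miR-301 (median -0.18).

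**Figure D5:**
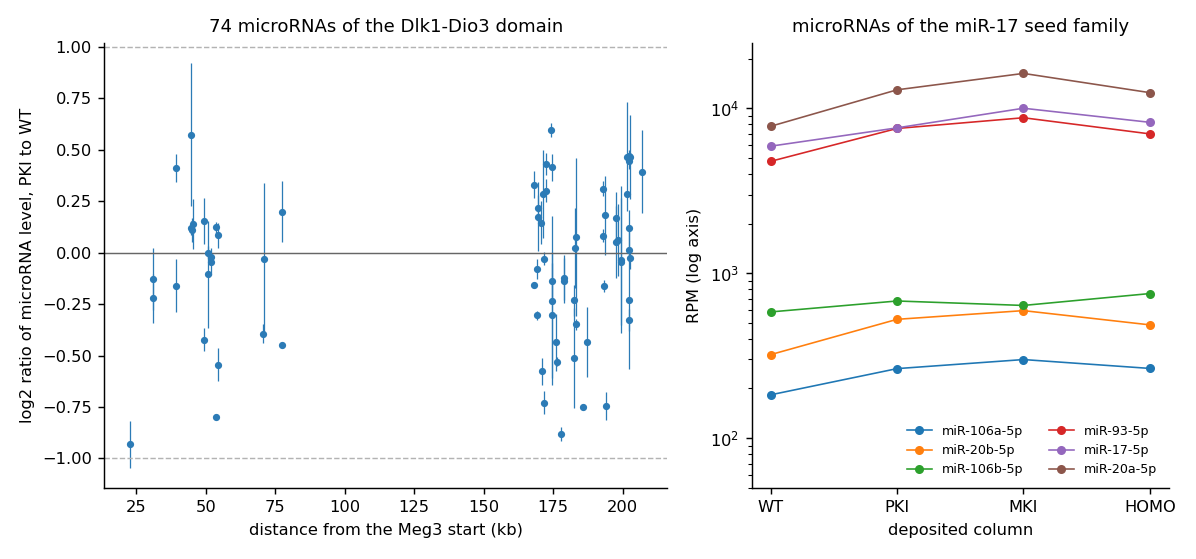
Left, log2 ratio of each of 74 domain microRNAs in PKI to WT by distance from the Meg3 start in kb, with 95% counting intervals as bars and dashed lines at 2-fold. Right, RPM on a log axis of the 6 microRNAs with the miR-17 seed in the 4 columns, lowest in WT for every member, as in miR-20a-5p at 7780 RPM against 12443 to 16278 in the other columns.

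Outside the domain 4 microRNAs with large differences are shown by sequence, 3 lower and 1 higher in PKI.
miR-615-3p: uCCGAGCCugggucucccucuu
miR-708-3p: cAACUAGAcugugagcuucuag
miR-1298-5p: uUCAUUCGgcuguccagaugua
miR-3963: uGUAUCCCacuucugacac

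miR-615-3p, from a hairpin within the Hoxc genes (chr15:103014969-103014990), stood at 4336 RPM in WT, against 1961 in PKI, 2732 in MKI and 3908 in HOMO, so PKI held 45.2% of WT (44.4 to 46.0%). The other arm, miR-615-5p, was lower by less, at 35.7 and 29.2 RPM in WT and PKI (-0.29). The protein-coding Hoxc genes had a median of -0.03. miR-708-3p (chr7:96249496-96249517) held 49.6% (47.4 to 51.9%) and miR-708-5p was at 722 and 781 RPM. miR-1298-5p (chrX:147064918-147064939) held 49.9% (47.8 to 52.2%). miR-3963 (chr3:151023839-151023857), at 33.4 and 80.6 RPM, and miR-145a-5p, at 564 and 1232 RPM, were past 2-fold higher. miR-7688-5p, picked after its value was seen, had 88 reads in WT and 0 in PKI, where 3 reads, the limit a count of 0 allows, are 0.298 RPM, against 10.8 and 9.36 RPM in MKI and HOMO.

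Arms of 1 hairpin often lay on opposite sides of WT. Of 137 hairpins with both arms measured, 72 had arms on the same side of WT and 65 on opposite sides, and the median gap between arms was 0.42, against a median absolute difference of 0.26 for single microRNAs. The difference also went with base composition, the 107 microRNAs poorest in G and C having a median of 0.08 and the 106 richest -0.12. The part of base composition in any single difference was not tested.

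Tissue microRNAs gave a mixed picture beside the mRNA lists. Of 5 liver microRNAs 4 were below WT (median -0.41), with miR-122-5p, the hepatocyte microRNA, at 3587 and 2695 RPM, 75.1% (73.9 to 76.4%), and miR-148a-3p at 61969 and 38833. Red cell microRNAs were above WT in 4 of 6 cases (median 0.20), with miR-451a at 493 and 647 RPM, 131% (126.3 to 137%), and miR-144-3p of the same precursor below at 57.1 and 34.1. miR-126a-3p of endothelium was below WT at 22388 and 16364 RPM and miR-126a-5p above at 304 and 449. Of 10 epithelial microRNAs 6 were above and 4 below WT (median 0.05), the lowest being miR-200a-5p at 180.2 and 108 RPM. The skin microRNAs miR-203-3p and miR-205-5p stood at 113% (111 to 117%) and 111% (108 to 113%) of WT. Neural microRNAs had a median of 0.10 and striated muscle microRNAs 0.26, neither with a member past 2-fold.

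Long non-coding transcripts were counted per transcript and showed larger scatter. Of 6181 at 0.5 FPKM or more in at least 2 columns, 214 (3.46%) were 2-fold lower and 187 (3.03%) 2-fold higher in PKI, with a median of -0.13. Among these 89 of the lower were listed at 0 in PKI and 86 of the higher at 0 in WT. Of 376 assembled loci with several measured transcripts, 21 had transcripts past 2-fold in both directions, and of 147 transcripts past 2-fold in such loci only 21 had a locus sum past 2-fold the same way. Summed per locus, 8 such loci were 2-fold higher and 9 lower. The files do not pair the transcripts with gene names, so Meg3 and the other maternal transcripts were not analysed here. ENSMUST00000127786 was the lowest relative to WT, at 79.1 and 1.34 FPKM, and ENSMUST00000152754 was among the highest, at 57.6 and 1060.5. As only WT lacked the Y-linked transcripts, neither difference can be assigned to the paternal insertion rather than to the sex of the embryos. A single transcript took 32.2% of the WT column and 44.7% of the PKI column, against 0.0188% of MKI.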

How the data were processed

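RNA of whole embryos was sequenced as libraries described as poly(A)-selected and as small RNA libraries. Yet the 65 replication-dependent histone genes, whose transcripts mostly lack a poly(A) tail, summed to 18876 FPKM for WT. The 46 genes of the large ribosomal subunit summed to 12089 FPKM there. For PKI the histone sum was 25020 FPKM, for HOMO 19217 and for MKI only 4694. Whether the selection was complete, or alike between columns, was not tested. The labels list 2 samples per genotype, but a genotype has a single column in each of the 3 tables, so no spread within a group can be estimated, no model was fitted and no p-value is given. Whether a column is 1 sample or a mean of 2 is not stated in the labels. The mRNA and long non-coding tables hold values that the authors deposited without naming their unit, read here as FPKM. Reads were aligned with HISAT2 2.0.4 and assembled with StringTie 1.3.4d, with cutadapt 1.9 and build GRCm38 also named, per the submitters' processing notes. The microRNA table holds RPM, as the authors deposited it. Its values are whole reads within 0.02 reads, and intervals and the floor of 3 reads cover counting error only.

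Differences are log2(value + 0.5) in PKI minus WT, for rows of at least 1 FPKM (mRNA), 0.5 FPKM (long non-coding) or 10 RPM (microRNA) in 2 of 4 columns. A difference past 2-fold is called. Named genes are the 12 furthest from WT each way with a symbol and 2 FPKM, members of fixed lists, and, for microRNAs, the 10 furthest each way above 50 RPM. Genes named outside this rule are marked in the text. A few genes are counted in their lists but not reported here by name. The members and the 86 gene lists were chosen with earlier results of these data known. Alternatives were the pseudocount, the filter, quantile and trimmed-mean scaling (30% trimmed at each end), a correction by 20 bins of RefSeq gene span, and the HOMO and MKI pair. The scripts were tested on simulated data. Python 3.11.15, pandas 2.3.3, numpy 2.4.6, SciPy 1.17.1 and matplotlib 3.10.9 were used.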

Additional observations from a re-analysis of the deposited data

Results flagged for a closer look

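In 6 of the genes furthest from WT, the difference between HOMO and MKI lay past 2-fold in the direction opposite to that between PKI and WT, and this contrast between the pairs was not tested. HOMO minus MKI was 6.86 for Gm49450, 1.97 for Hist1h2bj, 3.60 for Gm49380, 2.81 for Gm42878 and 1.53 for Gfi1b, all lower in PKI than in WT. It was -1.53 for Rps27rt, which was higher in PKI. Hist1h2bj and Rps27rt have near-identical copies, so their values are uncertain.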

How the results depend on the processing

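No paired analysis was possible because the deposited columns carry no replicate number. With 1 column per genotype no replicate could be left out. The count of mRNA genes past 2-fold lower was 349 with a pseudocount of 0.1, 113 with a pseudocount of 1 and 79 with a filter of 5 FPKM. The count higher was 154 without a filter, 48 with the filter of 5 FPKM and 49 after the span correction. In HOMO against MKI the counts were 2615 higher and 484 lower. Long non-coding transcripts past 2-fold higher and lower were 332 and 561 with a pseudocount of 0.1, 90 and 86 with 1, 407 and 468 without a filter, and 43 and 44 with a filter of 2 FPKM. MicroRNAs were 34 and 71 without a filter, 1 and 3 with a filter of 100 RPM, and 10 and 13 under quantile normalization. By counting intervals, 2 higher and 2 lower microRNAs lay wholly past 2-fold. Intervals wholly above or below the WT level, at any fold, numbered 180 and 185. Of 109 named mRNA genes past 2-fold, 23 no longer passed with a pseudocount of 1, 18 under quantile normalization, 13 after the span correction and 9 under trimmed-mean scaling. List medians changed sign in 4 of 82 lists under quantile normalization, 7 under trimmed-mean scaling and 51 in HOMO against MKI. Without a filter the medians of the apolipoprotein, coagulation, hepatocyte metabolism and lens lists were -0.74, -0.84, -0.27 and -0.34. The globin median was -0.49 under quantile normalization. No depth is given for the FPKM tables, so the counting error of low values is unknown.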
